A study of Mus musculus with 19 samples.

Results

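The comparison set mice that had recovered from chronic social defeat against mice taken at the end of it. It used the 8 arrays whose labels give 14 days of stress, out of 19 arrays in the series: 4 with 7 further days without stress (CSDrec, animals 28 to 31) and 4 without them (CSD14, animals 12 to 15). The samples were chosen by their labels alone, no home cage array entered the fit, and all 65956 rows of the array table that are not control rows were tested.

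The mice were wild-type C57BL/6N males, 8 to 10 weeks old according to the methods. Each lived beside an aggressive male CD-1 mouse behind a perforated partition, which was lifted once a day for 5 minutes according to the methods. The design text and the CSD14 labels give 10 minutes, whereas the CSDrec labels give no length. CSD14 mice were taken 16 hours after the last defeat. CSDrec mice had the same 14 days and then 7 days of home cage housing, with a partition between the cage mates, so the time since the last defeat differs between the groups by design. Mice whose behavior scores were those of stress-susceptible animals were picked for the arrays, by the methods. Brains without cerebellum, brainstem and meninges were digested, and live nucleated CD31+ cells were sorted for arrays, 1 animal to an array. CSD14 and CSDrec animals carry separate runs of label numbers, so anything that follows label order cannot be told apart from the groups.

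Brain endothelial cells line the vessels of the brain and form the blood-brain barrier through tight junctions and selective transporters. They carry receptors for glucocorticoids and for inflammatory cytokines, both of which circulate during stress, and endothelium of veins is known as the main site of the vascular response to interleukin 1. Pericytes wrap the capillaries from outside, and border-associated macrophages sit along larger vessels, so both lie next to the sorted cells.

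The sorted material was mainly endothelial in both groups. The mean log2 value of 23 endothelial identity genes lay between 9.98 and 10.13 on the CSD14 arrays and between 9.92 and 10.13 on the CSDrec arrays. Against this, 11 neuronal genes averaged 3.92 to 4.02, 10 oligodendrocyte genes 3.59 to 3.77 and 11 lymphocyte genes at most 3.15 over the 8 arrays. Other cell types were more evident, with means of 4.64 to 5.66 for pericyte, 4.54 to 5.14 for microglia and 4.13 to 5.13 for choroid plexus genes. The pericyte gene Rgs5 alone was at 8.16 to 9.28. As a floor for expression served 1424 rows for olfactory, vomeronasal and taste receptors, whose 95th percentile, called the receptor level here, was log2 3.13. Of all tested rows, 30002 had a mean above it, among them 13011 named genes.

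With limma and Benjamini-Hochberg adjustment over all rows, 1 row passed 0.05 (0.00152% of rows), and it carries no gene symbol. Without adjustment 3099 rows (4.70%) were higher in CSDrec at p below 0.05 and 2741 (4.16%) were lower, and the lowest adjusted p of a row with a gene symbol was 0.18. None of the named genes below passed the adjusted threshold in the main fit, so their values are given as differences with their errors. Among named genes above the receptor level, all 4 CSDrec animals lay above all 4 CSD14 animals for 2.28% and below them for 5.82%, against 2.50% and 2.33% of all rows. A negative difference (CSDrec minus CSD14, as in every difference given here) was found in 57.1% of these genes and a positive one in 42.9%, and 8.07% and 3.34% had an unadjusted p below 0.05 in these directions. The median absolute difference of rows above the receptor level was 0.08 on the log2 scale and its 99th percentile 0.59.

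**Figure D1:**
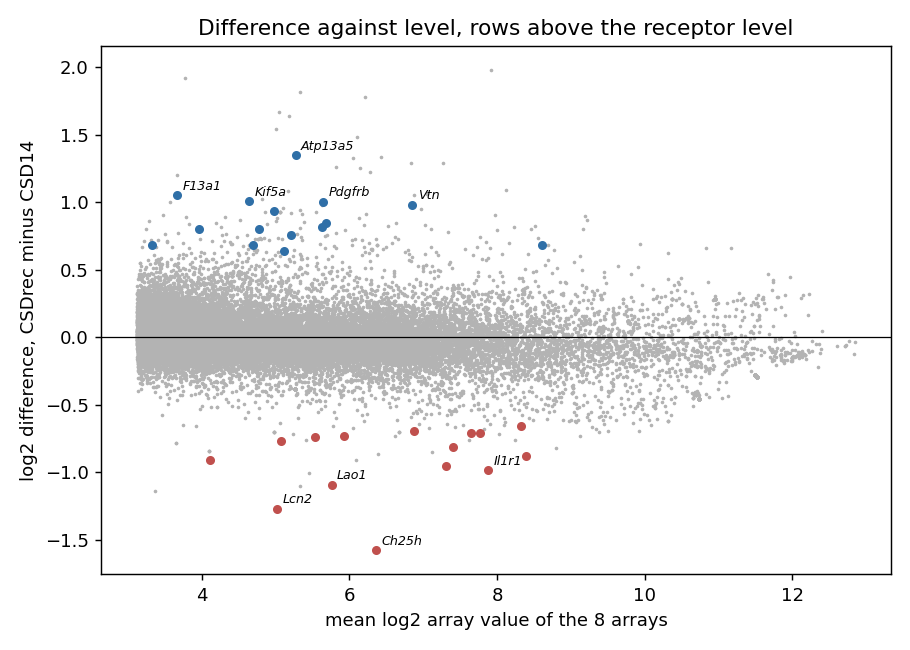
Log2 difference (CSDrec minus CSD14, vertical axis) against the mean log2 value of the 8 arrays (horizontal axis) for the 30002 rows above the receptor level (gray points). Blue and red points are the 15 named genes with the largest positive and the 15 with the largest negative differences among those whose groups did not overlap; Ch25h, at -1.58, lies lowest of all rows.

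Of the 15 genes with the largest negative differences among those that did not overlap, Ch25h, which encodes cholesterol 25-hydroxylase, an enzyme that makes the oxysterol 25-hydroxycholesterol, had the lowest difference of all rows above the receptor level. Its log2 values were 6.76, 7.02, 7.21 and 7.62 in CSD14 animals 12 to 15 and 5.63, 5.59, 5.12 and 5.97 in CSDrec animals 28 to 31. The CSD14 mean was therefore 2.98-fold the CSDrec mean (log2 difference -1.58, SE 0.20, n = 4 and 4, limma adjusted p = 0.18). The closest animals of the 2 groups, 31 and 12, were 0.79 apart.

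Lcn2 encodes lipocalin 2, a secreted acute-phase protein that binds iron-loaded siderophores. Its values were 5.37, 5.40, 5.53 and 6.33 in CSD14 and 4.29, 4.59, 4.21 and 4.47 in CSDrec (2.41-fold, difference -1.27, SE 0.20, adjusted p = 0.22). CSD14 animal 15 was far above the other 3, and the groups stayed apart without it. With that animal left out the difference was -1.05 (SE 0.10) and limma's adjusted p 0.039, so Lcn2 was then lower in CSDrec past the threshold. Lcn2 passed the threshold in no other fit.

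Il1r1, the signalling receptor for interleukin 1, was measured at 8.16, 8.30, 8.27 and 8.75 in CSD14 and at 7.16, 7.09, 7.67 and 7.61 in CSDrec (1.98-fold, difference -0.98, SE 0.16, adjusted p = 0.22). Lrg1, a secreted leucine-rich glycoprotein of the acute phase, was measured at 4.54, 4.32, 4.13 and 5.27 against 3.69, 3.88, 3.59 and 3.48 (difference -0.91, SE 0.21). The Il1r1 values of the groups were apart from each other by 0.49 at their nearest, whereas those of Lrg1 were spread widely in CSD14, again with animal 15 highest. Ptgs2, the inducible cyclooxygenase that makes prostaglandin precursors, had a smaller difference of -0.69 (SE 0.17).

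Cdkn1a, the cyclin-dependent kinase inhibitor p21, had one of the smallest p-values among named genes. It was measured at 8.73, 8.84, 8.68 and 9.08 in CSD14 and at 7.94, 7.83, 8.22 and 7.83 in CSDrec (difference -0.88, SE 0.11, unadjusted p = 1.5e-05, adjusted p = 0.18). Lao1, an L-amino acid oxidase, was lower by 1.09 (SE 0.15) and Tmem252, a membrane protein, by 0.95 (SE 0.14). Wnt5a, a secreted ligand of mostly non-canonical Wnt signalling, was nearly constant among CSDrec animals at 5.20, 5.10, 5.14 and 5.20, against 5.78, 6.02, 5.64 and 6.16 in CSD14. Ccn2, a matricellular growth factor, Adm, the vasodilator peptide adrenomedullin, Depp1, a FOXO-regulated autophagy gene, Map3k6, a stress-activated kinase, Sult1a1, a sulfotransferase, and Scgb3a1, a secretoglobin, completed the group with differences between -0.81 and -0.66. In Adm the CSD14 mean rested partly on animal 13, at 6.95 against 5.97 to 6.14 in the other 3.

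Of the 15 genes with the largest positive differences, 5 are on the pericyte list and 2 on the border macrophage list described below. Atp13a5, a P5-type ATPase used as a marker of brain pericytes, was measured at 4.99, 4.39, 4.69 and 4.33 in CSD14 and at 6.37, 5.38, 6.13 and 5.91 in CSDrec (2.55-fold, difference 1.35, SE 0.21, adjusted p = 0.22). Pdgfrb, the receptor through which endothelial PDGF-B recruits pericytes, was measured at 5.69, 4.95, 5.13 and 4.78 against 6.39, 5.82, 6.28 and 6.09 (2.01-fold, difference 1.00, SE 0.19). In both genes animal 12 was highest in CSD14 and animal 28 highest in CSDrec, and the groups did not overlap.

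Further genes at the top were Vtn (vitronectin, difference 0.98, SE 0.16), Rgs4 and Rgs5 (regulators of G protein signalling in mural cells, 0.94 and 0.68), Slc6a20a (a proline transporter, 0.84), Abcc9 (the sulfonylurea receptor subunit of the vascular KATP channel, 0.82), Gucy1b1 (the beta subunit of the nitric oxide receptor guanylate cyclase, 0.68) and Plxdc2 (a plexin domain protein, 0.64). Genes of myeloid cells were F13a1 (the A chain of coagulation factor XIII, 1.05), Cd163 (the hemoglobin scavenger receptor, 0.69, with all 4 CSD14 values below the receptor level), Lyz1 (a lysozyme, 0.80) and Cd300ld2 (a myeloid CD300 receptor, 0.80). The CSD14 values of F13a1, 3.10 to 3.17, lay at the receptor level of 3.13, with 1 animal below it. The sizes for F13a1 and Cd163 thus have little or no measured level on the CSD14 side. Adap2, an ArfGAP, differed by 0.75. Kif5a, a kinesin heavy chain best known from neurons, was measured at 4.15, 4.07, 4.24 and 4.09 in CSD14 and at 4.91, 5.57, 4.73 and 5.37 in CSDrec (difference 1.01, SE 0.16). Its CSD14 values were the tightest of these genes after those of F13a1 and Cd163.

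**Figure D2:**
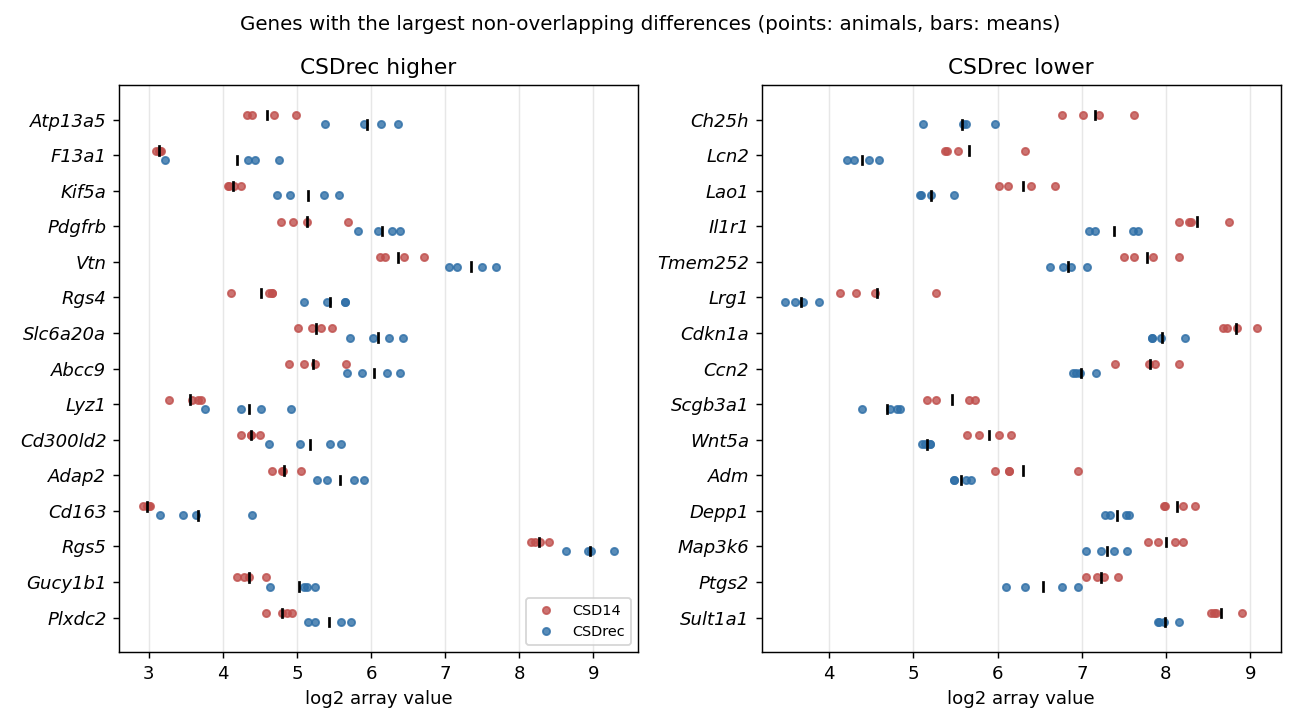
Log2 array value (horizontal axis) of each animal for the 15 named genes with the largest positive (left) and the 15 with the largest negative (right) differences among genes whose groups did not overlap. Red points are CSD14 animals, blue points CSDrec animals and black bars group means; F13a1 and Cd163 show 1 CSDrec animal close to the CSD14 values, at 3.22 and 3.16.

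The other stress groups place these differences. Over CSD1 (1 day of defeat, n = 3), CSD7 (7 days, n = 4), CSD14 and CSDrec, the CSDrec mean was the lowest for 14 of the 15 lower genes, whereas the CSD14 mean was the highest for 3 of them. CSD7 animals had Ch25h values of 6.94 to 7.44 and Lcn2 values of 5.28 to 5.84, close to CSD14, while CSD1 animals ranged from 5.07 to 9.38 and from 4.60 to 7.13. For the 15 higher genes, the CSDrec mean was the highest in 15 and the CSD14 mean the lowest in 14, while the highest CSD7 animal lay above the highest CSDrec animal for 11 of the 15, among them Atp13a5 (CSD7 range 4.75 to 6.45), Pdgfrb (5.26 to 6.88) and Kif5a (4.50 to 6.10). Since the genes were chosen on CSDrec and CSD14, part of this order is fixed by the choice.

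The promoters of Ch25h and Lcn2 are shown because these 2 genes had the most negative differences of the named genes. They are the 250 bases before the start site in RefSeq (build GRCm38.p6, minus strand for both), chr19:34475149-34475398 for Ch25h and chr2:32387740-32387989 for Lcn2, with motif matches in capitals, in order the C/EBP, cAMP response and NF-kappaB motifs in Ch25h and the C/EBP and glucocorticoid receptor core motifs in Lcn2.
Ch25h: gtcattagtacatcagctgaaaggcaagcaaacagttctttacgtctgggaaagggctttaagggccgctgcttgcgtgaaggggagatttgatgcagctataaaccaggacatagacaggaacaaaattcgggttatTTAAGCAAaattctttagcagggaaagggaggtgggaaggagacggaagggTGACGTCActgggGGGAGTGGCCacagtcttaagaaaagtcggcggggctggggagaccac
Lcn2: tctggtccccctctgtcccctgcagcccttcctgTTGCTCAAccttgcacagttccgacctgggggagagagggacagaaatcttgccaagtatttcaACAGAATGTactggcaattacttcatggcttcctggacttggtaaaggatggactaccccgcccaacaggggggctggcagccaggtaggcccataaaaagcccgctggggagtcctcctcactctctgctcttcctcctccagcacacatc

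Motifs were searched on both strands of the RefSeq windows around the start sites, which also hold a short stretch after the start (32851 windows in all; N stands for any base). The glucocorticoid receptor core ACANNNTGT was in 6.85% of all windows and in those of 3 of 13 lower genes with a window (Lcn2, Tmem252 and Map3k6) and 0 of 11 higher genes. The C/EBP motif TTGCNNAA was in 10.8% of all windows, 4 of 13 lower genes (Ch25h, Lcn2, Il1r1 and Ptgs2) and 2 of 11 higher genes. The NF-kappaB motif was in 20.7% of all windows, 1 of the lower genes and 3 of the higher genes, and the cAMP response element TGACGTCA in 1.79% of all windows and in Ch25h alone among the 24 genes. These are matches of letters and no evidence of binding.

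Glucocorticoid target genes were lower in CSDrec as a list. Of 24 members, 19 had a negative difference and 10 did not overlap in that direction (5.82% of all named genes did), with a list median of -0.21 beside -0.02 over all named genes. The list mean was 6.56, 6.63, 6.55 and 6.73 in CSD14 animals 12 to 15 and 6.35, 6.34, 6.36 and 6.32 in CSDrec animals 28 to 31. CSDrec animals thus lay within 0.04 of each other and below every CSD14 animal, and CSD7 animals were at 6.53 to 6.74. CSD1 animals ranged from 6.19 to 6.91, so the lowest of them lay below every CSDrec animal.

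Fkbp5, a cochaperone that limits glucocorticoid receptor activity and is induced by it, was measured at 5.28, 5.85, 5.33 and 5.76 in CSD14 and at 5.05, 5.00, 5.14 and 4.97 in CSDrec (1.43-fold, difference -0.52, SE 0.13, adjusted p = 0.38). Angptl4, a lipoprotein lipase inhibitor, differed by -0.62 and Ddit4, an inhibitor of mTOR complex 1, by -0.58. Tsc22d3, the glucocorticoid-induced leucine zipper, had a difference of -0.21 and did not overlap either, whereas Sgk1, Zbtb16, Klf9 and Per1 overlapped, with differences of -0.35, -0.21, -0.15 and -0.07. Nr3c1, the glucocorticoid receptor itself, went the other way, at 7.35, 7.22, 7.37 and 7.30 in CSD14 and 7.60, 7.48, 7.62 and 7.68 in CSDrec (difference 0.28, SE 0.06). It was the only list member whose CSDrec values all lay above those of CSD14.

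Cytokine receptor and acute-phase genes showed the same arrangement. The lists are not separate, since Lrg1, on this list, also has the lowest difference among the glucocorticoid targets (-0.91). In the cytokine receptor and acute-phase list 19 of 22 members had a negative difference, 7 without overlap, with a median of -0.15. Over all named genes these shares were 57.1% and 5.82%. The list mean was 5.87, 5.87, 5.89 and 6.09 in CSD14 and 5.69, 5.73, 5.69 and 5.71 in CSDrec. It was 5.90 to 6.05 in CSD7 and 5.62 to 6.54 in CSD1, so the lowest CSD1 animal again lay below CSDrec. Lcn2, Il1r1 and Lrg1 led the list, and Serpina3n, a serine protease inhibitor of the acute phase, overlapped narrowly (3.47 in CSD14 animal 13, 3.48 in CSDrec animal 29), with CSD14 animal 15 far above the rest at 4.69. Tnfaip3, a feedback inhibitor of NF-kappaB, was higher in CSDrec without overlap (difference 0.38, SE 0.08).

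Among the 3 endothelial segments, venous genes had the most negative median. The median was -0.17 over 14 venous genes, beside -0.05 over 20 arterial and -0.04 over 14 capillary genes. Of the venous genes 6 were lower without overlap (5.82% of all named genes were). Ackr1, the atypical chemokine receptor of venules, was measured at 3.67, 3.96, 4.30 and 4.35 in CSD14 and at 3.29, 3.48, 3.47 and 3.43 in CSDrec (difference -0.65, SE 0.14). Vwf, von Willebrand factor, was measured at 8.63, 8.81, 8.74 and 9.09 against 8.09, 8.35, 8.25 and 8.38 (1.46-fold, difference -0.55, SE 0.10, adjusted p = 0.26). The list also holds Ch25h, Lcn2 and Il1r1, whereas Nr2f2, the transcription factor of venous identity, differed by 0.08, Vcam1 by 0.18, Icam1 by 0.05 and Selp by 0.01.

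Genes of hemostasis and of vessel tone held further separated members. In hemostasis, Vwf, Plat (tissue plasminogen activator, difference -0.48), Anxa2 (-0.32) and its partner S100a10 (-0.18), which together bind Plat at the cell surface, were lower without overlap, and the median of 27 members was 0.00. Among 20 vasomotor genes, Adm, Ptgs2 and Ramp2, a subunit of the adrenomedullin receptor (difference -0.41, SE 0.07), were lower without overlap with 2 others. Of 28 early response genes 8 were lower without overlap, led by Ccn2, Jund (-0.53) and Jun (-0.36). However, the median was -0.01, and Nr4a1, Ccn1 and Egr1 had differences of 0.44, 0.35 and 0.16. The share of all named genes that were lower without overlap was 5.82%.

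Metabolic genes differed little one by one but mostly in 1 direction. Of 35 oxidative phosphorylation genes 32 had a negative difference and 7 did not overlap (median -0.12), led by the complex I subunit Ndufa2 (-0.38, SE 0.07) and the ATP synthase subunit Atp5d (-0.32, SE 0.05). Of 23 glycolysis and citric acid cycle genes 20 had a negative difference and 1 did not overlap (median -0.11), and of 21 proteasome genes 20 and 3 (median -0.06). Over all named genes above the receptor level, 57.1% had a negative difference and 5.82% were lower without overlap. The 1 glycolysis gene is near that share. In all of these list means the groups overlapped through CSDrec animal 31, at 6.67, 6.48 and 6.79. The CSD14 ranges were 6.64 to 6.77, 6.45 to 6.55 and 6.74 to 6.86. Heat shock chaperones had a median of -0.20 with 10 of 12 negative. Their largest difference, that of Hspa1a, an inducible HSP70 (-0.46), came from CSD14 animals 12 and 13, at 10.56 and 10.65, since animals 14 and 15, at 9.79 and 9.71, overlapped with CSDrec at 9.65 to 9.81.

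Barrier genes had medians near 0. The median was -0.03 over 21 junction genes, -0.04 over 23 solute carriers, -0.01 over 12 ABC efflux pumps and -0.03 over 21 genes of caveolae and transcytosis. Of the endothelial genes that the study names, Slc2a1, the glucose transporter of the barrier, was lower by 0.22 (SE 0.06, no overlap), Ly6c2 by 0.15 (SE 0.07, no overlap), Cldn5, the main claudin of brain endothelium, by 0.20 (SE 0.11), Eng by 0.21 (SE 0.07) and Bsg by 0.13 (SE 0.07). Pltp, Kdr and Tek differed by 0.01, 0.10 and 0.07. Of the genes that the study names under coagulation, P2ry1 differed by -0.35, P2ry12, which is also on the microglia list, by 0.17 and Fermt3 by 0.03. Cd3e of T cells differed by -0.01.

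**Figure D3:**
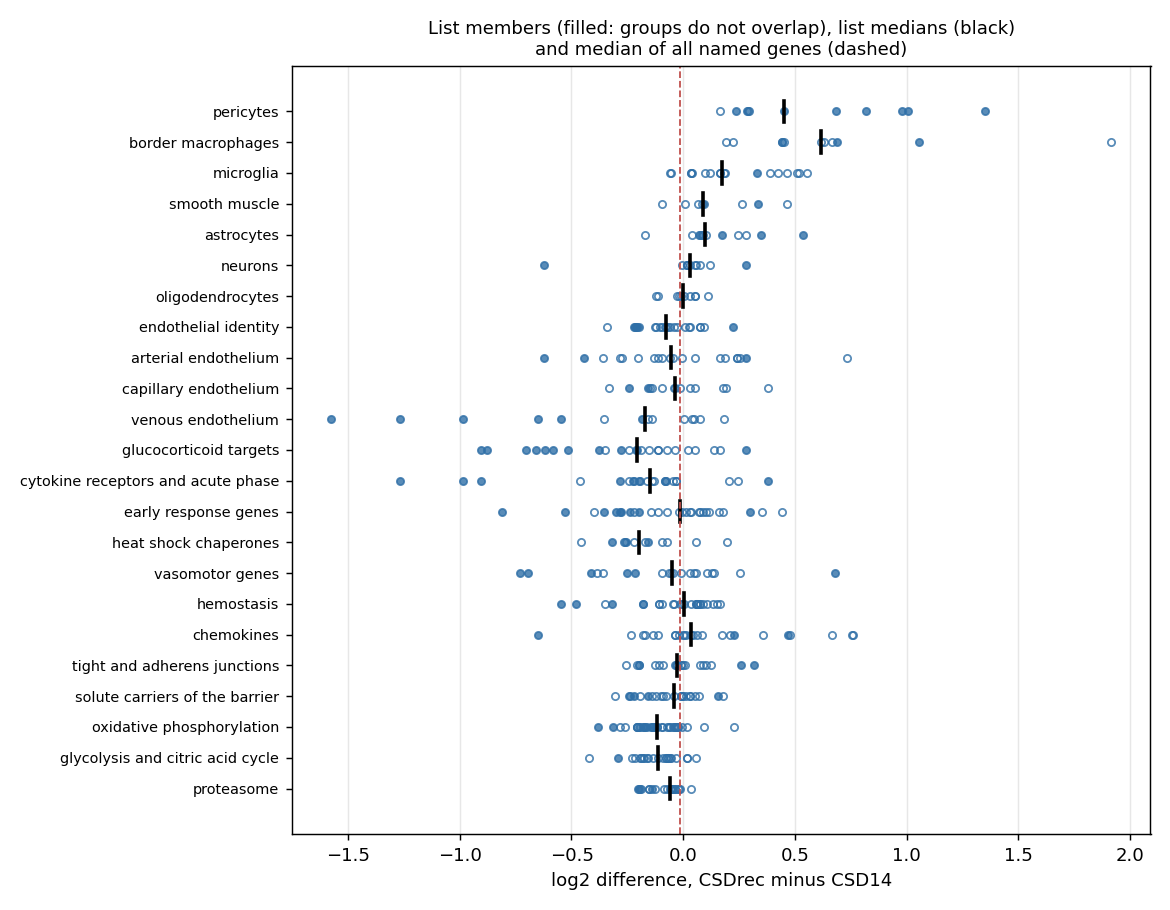
Log2 difference (CSDrec minus CSD14, horizontal axis) of every matched member of 23 gene lists, filled where the groups did not overlap. Black bars are list medians and the dashed line is the median of all named genes above the receptor level, -0.02; pericyte and border macrophage members all lie to the right of 0.

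Pericyte genes were higher in CSDrec throughout the list. All 11 members had a positive difference, 8 without overlap (2.28% of all named genes) and all 11 at an unadjusted p below 0.05, with a median of 0.45. The list mean was 5.05, 4.73, 4.84 and 4.64 in CSD14 and 5.66, 5.18, 5.46 and 5.34 in CSDrec, so that the lowest CSDrec animal was 0.13 above the highest CSD14 animal. Kcnj8, the pore subunit of the same channel as Abcc9, differed by 0.45 (SE 0.12). CSD1 animals ranged from 4.71 to 5.70 and CSD7 animals from 4.86 to 6.05 in the list mean, so CSDrec lay inside their range. In such sorted bulk samples a larger share of a cell type and more of its RNA per cell cannot be told apart, and the gate selected CD31, an endothelial antigen.

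Smooth muscle and astrocyte genes had medians of 0.09 over 8 and 0.10 over 12 genes. Of the astrocyte genes 11 had a positive difference and 4 did not overlap in that direction (2.28% of all named genes), and the list mean was 4.12 to 4.32 in CSD14 and 4.35 to 4.40 in CSDrec. CSD1 animals ranged from 4.14 to 5.02 and CSD7 animals from 4.09 to 5.96 in that mean, so CSDrec lay inside both ranges. The smooth muscle actin Acta2 overlapped between groups (difference 0.47, SE 0.26). Slc1a2, the astrocytic glutamate transporter, was measured at 4.29, 4.18, 4.70 and 4.72 in CSD14 and at 4.92, 4.97, 5.17 and 4.98 in CSDrec, and Gfap at 3.73, 3.55, 3.60 and 3.68 against 3.91, 3.80, 3.86 and 4.39. Both pairs of groups were separate, as were the values of Snap25 among the neuronal genes (difference 0.28), while the medians of neurons and oligodendrocytes were 0.03 and 0.00. All 7 choroid plexus genes had a positive difference (median 0.155), 1 without overlap, and their mean overlapped between the groups.

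Border macrophage genes were higher in 3 of the 4 CSDrec animals. All 11 members had a positive group difference (median 0.61), yet 3 did not overlap (2.28% of all named genes in that direction), because animal 31 was at the CSD14 level. The list mean was 4.33, 4.27 and 4.59 in CSDrec animals 28, 29 and 30, 3.49 in animal 31 and 3.45 to 3.56 in CSD14. CSD1 animals were at 3.47 to 3.49, but CSD7 animals ranged from 3.44 to 4.29, so the highest of them reached the level of CSDrec animal 29. Mrc1, the mannose receptor that marks these cells, differed by 1.92 (SE 0.55, adjusted p = 0.42). All 4 CSD14 values lay below the receptor level, so Mrc1 passed that level through CSDrec alone and its size has no measured level on the CSD14 side. It was measured at 2.89, 2.70, 2.81 and 2.86 in CSD14 and at 4.98, 5.13, 6.05 and 2.78 in CSDrec, so its groups overlapped through animal 31 alone. Lyz2, a lysozyme of monocytes and macrophages, had the same pattern, at 6.40, 6.49, 6.87 and 4.25 in CSDrec against 4.06 to 5.11.

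Without animal 31, limma called 6 rows after adjustment, all higher in CSDrec: Mrc1 (difference 2.57, SE 0.22, adjusted p = 0.034), F13a1 (1.38, SE 0.10, adjusted p = 0.019), Cxcl2 (0.65, SE 0.06, adjusted p = 0.042), C1qc (0.65, SE 0.06, adjusted p = 0.047) and 2 rows with no gene symbol. Animal 31 was the lowest CSDrec animal in each of these named genes, at 2.78, 3.22, 3.01 and 4.49. Leaving it out removes most of their CSDrec spread, so these calls are no independent support for a difference. The CSD14 values of Mrc1 (all 4), Cxcl2 (3 of 4) and F13a1 (1 of 4) lay below the receptor level, and the other F13a1 values lay barely above it. In the microglia list 16 of 18 genes had a positive difference (median 0.17), but Tmem119 and Cx3cr1 differed by -0.06 and 0.03, and the largest differences were in Fcrls (0.55), Csf1r (0.52), P2ry13 (0.51) and C1qc (0.46). Of 25 chemokines, 14 were above the receptor level. The list held 16 positive and 9 negative differences, 2 higher and 1 lower without overlap (2.28% and 5.82% of all named genes), and its median was 0.035. Ccl12, Ccl24, Ccl2 and Cxcl2, which the study names, differed by 0.75, 0.67, 0.36 and 0.48 and overlapped through animal 31, with Ccl12 at 3.60, 3.05, 3.89 and 2.42 in CSDrec against 2.44 to 2.54 in CSD14, below the receptor level in CSD14 and in animals 29 and 31. Neutrophil, lymphocyte and antigen presentation lists had medians of 0.00, 0.04 and -0.01. The monocyte list had a median of 0.02, with 8 of 10 members positive and 1, Ly6c2, lower without overlap.

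With the border macrophage mean of each animal as a covariate, the glucocorticoid median was -0.21 and the Ch25h difference -1.16 (SE 0.27, limma adjusted p = 0.86). The differences of Mrc1, itself a member of that list, Cxcl2 and C1qc were then -0.013, -0.005 and -0.058. With the pericyte mean as covariate, an alternative added after seeing the data, the glucocorticoid median was again -0.21. The differences of Ch25h and Lcn2 were -1.03 (SE 0.39) and -0.58 (SE 0.33), with limma adjusted p = 0.88 and 0.91. Pericyte means were at most 5.05 in CSD14 and at least 5.18 in CSDrec, so these differences are extrapolated. Other medians moved with these covariates. The border macrophage covariate took the venous median from -0.17 to -0.058, that of oxidative phosphorylation from -0.12 to -0.05 and that of glycolysis and the citric acid cycle from -0.11 to 0.002. Border macrophage means of the groups met only through CSDrec animal 31 (3.49, CSD14 3.45 to 3.56, other CSDrec animals 4.27 to 4.59). Differences with that covariate therefore rest largely on animal 31. Its venous, oxidative phosphorylation and glycolysis means (6.47, 6.67 and 6.48) were the highest of CSDrec. What causes these shifts was not tested. The cytokine receptor and acute-phase median was -0.116 with it and -0.071 with the pericyte covariate, beside -0.15 without. Of 47 list medians, 18 moved by more than the replicate spread with the border macrophage covariate and 17 with the pericyte covariate, and 16 and 9 changed sign.

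**Figure D4:**
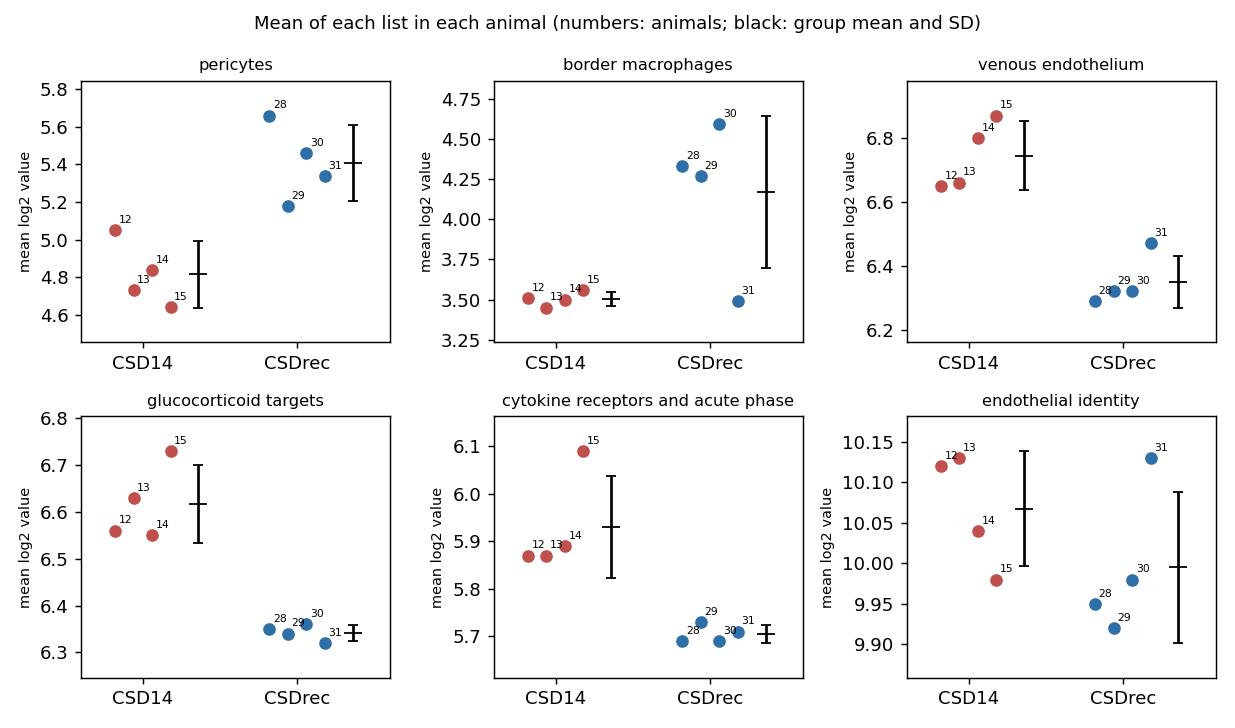
Mean log2 value (vertical axis, not starting at 0) of 6 gene lists in each animal, with animal numbers, group means and SD (n = 4 each, black). Glucocorticoid targets are at 6.32 to 6.36 in CSDrec and 6.55 to 6.73 in CSD14; CSDrec animal 31 is at 3.49 for border macrophages.

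Small RNA rows were looked at after their values had been seen and lie outside the rule for named genes, so they are given as a description. Most rows of the miRNA families Mir297, Mir466, Mir467 and Mir669, multicopy families of rodents of which many members lie in an intron of Sfmbt2 on chromosome 2, were higher in CSDrec. Of 87 such rows 48 were above the receptor level, and several copies had identical values, leaving 42 distinct rows, of which 41 had a positive difference, 25 had an unadjusted p below 0.05 and 5 did not overlap (median 0.35). Among all rows above the receptor level, 48.7% had a positive and 51.3% a negative difference, 5.22% and 7.49% had an unadjusted p below 0.05 in these directions, and 2.30% and 4.08% did not overlap. The other 205 distinct miRNA rows had a median of 0.02.

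One of 2 rows named Mir467e (TC0100001961.mm.1) had the largest difference of all rows above the receptor level, 1.98 (3.94-fold, SE 0.40, unadjusted p = 0.00059, adjusted p = 0.29). It was measured at 7.28, 7.27, 7.21 and 5.96 in CSD14 and at 7.87, 9.40, 9.59 and 8.78 in CSDrec. This row is numbered with chromosome 1, whereas the other Mir467e row, numbered with chromosome 2, differed by 0.62 (SE 0.15) with overlap. A row named Mir669b, numbered with chromosome 3, differed by 1.82 (SE 0.63) with overlap through animal 31. Mir669m-1 differed by 1.25 without overlap, and Mir297c by 1.33 and Mir297a-3 by 1.09 with overlap through animal 28, the lowest of the CSDrec animals in each. The family mean was 6.87, 6.69, 6.58 and 6.34 in CSD14 and 6.76, 7.35, 7.23 and 7.16 in CSDrec, and 6.52 to 7.28 in CSD1 and CSD7 animals. The groups overlapped through animals 12 and 28, and the host gene Sfmbt2 itself was below the receptor level (difference 0.02).

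Mature sequences of 5 members matched by name are shown (RefSeq, GRCm38.p6), with the seed, bases 2 to 8, in capitals, because the repetitive letters common to the family bear on what such rows can measure. Mir466j and Mir466k share the first 5 bases of the seed, and no seed is common to any pair.
Mir466j: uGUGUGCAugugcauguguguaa
Mir466k: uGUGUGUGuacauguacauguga
Mir467f: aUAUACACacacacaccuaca
Mir467h: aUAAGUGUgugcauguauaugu
Mir669n: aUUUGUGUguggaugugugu
All 5 hold UG or CA repeats. Their own differences were small, 0.30 for Mir466j, 0.11 for Mir466k, 0.15 for Mir467h and 0.17 for Mir669n, and 0.26 and 0.02 for the 2 rows of Mir467f. The array hybridized total RNA, so mature miRNA, precursor and other transcripts with such repeats cannot be told apart.

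Most rows of 3 other small RNA classes had a negative difference. Of 57 small nucleolar RNA rows 52 had a negative difference (median -0.39), 3 without overlap, near the 4.08% of all rows above the receptor level, and of 20 distinct rows of spliceosomal U RNA all 20 did (median -0.27), 4 without overlap. All 38 distinct 5S ribosomal RNA rows had a negative difference (median -0.34), none without overlap and 1 at an unadjusted p below 0.05. In the class means, CSDrec animals 28 and 31 were within the CSD14 range for small nucleolar RNA, at 6.84 and 6.81, and animal 28 was within it for U RNA, at 9.21, and above it for 5S, at 8.03. CSD7 animals covered a wider range, 6.32 to 7.52, 8.70 to 9.60 and 7.01 to 8.52.

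**Figure D5:**
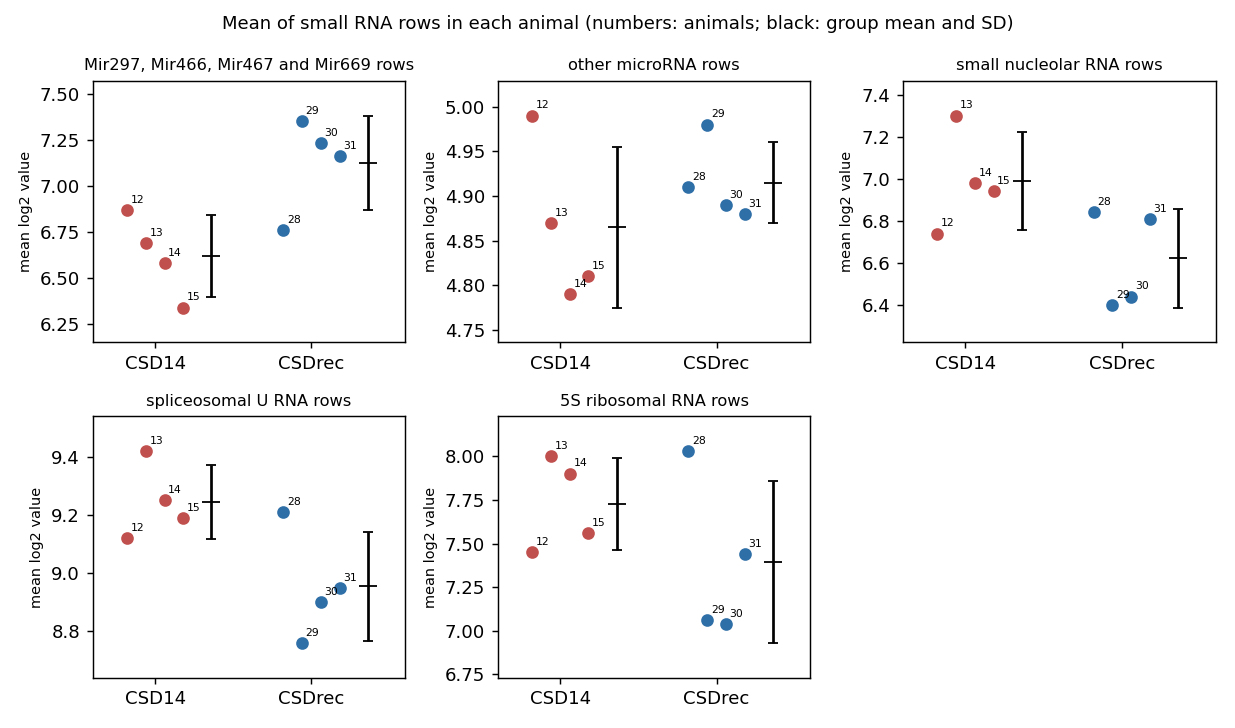
Mean log2 value (vertical axis, not starting at 0) of 5 groups of small RNA rows in each animal, with animal numbers, group means and SD (n = 4 each, black). CSDrec animal 28, at 6.76 in the Mir297, Mir466, Mir467 and Mir669 rows, lies among the CSD14 animals.

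The 1 row past the adjusted threshold, TC0700003163.mm.1, is numbered with chromosome 7 and has no gene symbol. It was measured at 3.73, 3.67, 3.75 and 3.93 in CSD14 and at 4.57, 4.61, 4.72 and 4.55 in CSDrec (1.80-fold, difference 0.84, SE 0.07, limma adjusted p = 0.023). With 1 animal left out at a time, it passed only without CSD14 animal 15 or CSDrec animal 31. Without animal 15, 3 more unnamed rows with nearby numbers on chromosome 7 passed as well (adjusted p = 0.016 to 0.019). The neighbouring rows were looked at after this was seen. Of 55 rows numbered from the first to the last of the 4, 14 were above the receptor level. All 14 had a positive difference and 5 did not overlap, beside 2.30% of all rows above the receptor level. The 4 rows that set this range are themselves among the 14 and among the 5, so these counts were partly fixed by the choice. Their mean was 3.21 to 3.72 in CSD14, 3.64 to 3.83 in CSDrec, 3.32 to 3.90 in CSD1 and 3.33 to 5.38 in CSD7.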

How the data were processed

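Values were log2, made by the authors from Affymetrix scans of sorted cells before they deposited them. The methods give RMA background correction, quantile normalization and median polish in Partek Genomics Suite; however, the submitters' processing notes name Affymetrix Expression Console with RMA. The methods name Clariom D mouse arrays, whereas the labelling protocol names a different Affymetrix array. For the build of the probe sets, the sources used here give none. Values were used as deposited.

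Of 72688 rows, 6732 control rows were left out. Of the 65956 tested, 30638 carry 1 gene symbol in the platform annotation, 2176 several and 33142 none. Symbols were updated through gene IDs found in a RefSeq table for 22596 rows. CSDrec was compared with CSD14 over the 8 arrays with limma (lmFit, eBayes; 6 residual and 3.78 prior degrees of freedom), with Benjamini-Hochberg adjustment over all rows and a threshold of 0.05. The fit was checked on simulated data. Each array holds 1 animal, and the number of arrays limits the precision.

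Of 918 memberships in 47 gene lists, 822 matched a row with that symbol alone. No set test was run. The genes named are the 15 with the largest positive and the 15 with the largest negative difference among named genes above the receptor level whose groups did not overlap, the genes the study names, list members with the largest differences or a defining role, and rows past the adjusted threshold in any fit. Small RNAs and list members given for contrast (such as Per1 or Nr2f2) lie outside this rule and were chosen with their values known. The comparison and the lists were chosen with earlier results of these data known.

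The alternatives were fits over the 15 stress arrays or all 19 arrays, the latter also with no moderated variance, renewed quantile normalization, centring, array weights, a filter on low rows, list means as covariates and leaving out each animal. The software was R 4.3.3 with limma 3.58.1, and sequences came from RefSeq.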

Additional observations from a re-analysis of the deposited data

Results flagged for a closer look

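Of 160 sets of 4 animals looked at (each gene or list mean within 1 group), 14 held an animal whose gap to the others was larger, as a share of the range, than Dixon's critical value for 4 samples. Chance flags about 1 in 20 sets, and sets that share animals and genes are not independent.

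Of the 14, 6 concern CSDrec animal 31. It was low in C1qc (4.49, the other 3 at 5.17 to 5.30), in Cxcl2 (3.01, the others at 3.68 to 3.74) and in the monocyte list mean (4.84, the others at 5.05 to 5.06). It was high in the venous list mean (6.47, the others at 6.29 to 6.32), in junction genes (7.18, the others at 7.09) and in solute carriers (8.86, the others at 8.71 to 8.73). The same animal had the highest endothelial identity mean of its group, 10.13.

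CSD14 animal 15 was high in Lcn2 (6.33, the other 3 at 5.37 to 5.53) and in the list mean of cytokine receptors and acute-phase genes (6.09, the others at 5.87 to 5.89). CSD14 animal 13 was low in Rgs4 (4.11, the others at 4.62 to 4.67) and in the hemostasis mean (5.42, the others at 5.47 to 5.48) and high in Sult1a1 (8.90, the others at 8.53 to 8.59). CSD14 animal 14 was high in the interferon mean (6.77, the others at 6.54 to 6.56) and low in that of ABC efflux pumps (6.65, the others at 6.72 to 6.74). CSDrec animal 30 was low in the mean of proliferation genes (3.56, the others at 3.61).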

How the results depend on the processing

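The count of 1 row past the adjusted threshold became 0 with all 19 arrays in 1 fit, with or without moderated variance, 0 after renewed quantile normalization, 0 with the border macrophage or pericyte list mean as covariate and 3 after centring each array on its expressed rows. Leaving out 1 animal at a time gave 0 to 6 rows, with 5 without CSD14 animal 15, 6 without CSDrec animal 31 and 0 without any other single animal. Rows higher in CSDrec at an unadjusted p below 0.05, 3099 in the fit reported, were 1557 with 19 arrays, 1611 with 19 arrays and no moderated variance, 1760 with the pericyte covariate and 1386 among rows above the receptor level only, where fewer rows are tested. Rows lower in CSDrec, 2741 in the fit reported, were 1671 with the 15 stress arrays, 863 and 791 with 19 arrays and 1199 with the border macrophage covariate. Non-overlapping rows higher in CSDrec, 1647 over all rows, were 690 above the receptor level. The differences of 4 genes changed sign: Abcc9 was -0.18 with the pericyte covariate, and Mrc1, C1qc and Cxcl2 were -0.013, -0.058 and -0.005 with the border macrophage covariate, lists of which Abcc9 and Mrc1 are themselves members. The cause of the other shifts was not tested. Of 33 genes followed through every setting, no other changed sign. Of 47 list medians, 16 changed sign with the border macrophage covariate, 9 with the pericyte covariate, 6 each under quantile normalization and centring, and 3 to 8 with 1 animal left out; the endothelial identity median was 0.02 under quantile normalization, and those of glucocorticoid targets (-0.23 to -0.18 over quantile normalization, centring and both covariates) and heat shock chaperones (-0.21 to -0.18) kept their sign there. No paired analysis was possible because the groups share no animal numbers.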

Other observations

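Some gene groups not described above held single genes with separated values and list medians near 0. In the TGF-beta and BMP list, whose median over 23 genes was 0.00, the BMP-responsive genes Smad9, Smad7, Smad6, Id1 and Id3 had differences of -0.46, -0.38, -0.35, -0.34 and -0.29 (CSDrec minus CSD14), of which that of Smad9 did not overlap. Of 20 genes of cholesterol and fatty acid synthesis 16 had a negative difference and 4 did not overlap, beside 57.1% and 5.82% of all named genes. Among the 4 were the farnesyl diphosphate enzymes Fdps (-0.29, SE 0.09) and Fdft1 (-0.24, SE 0.06), and the list median was -0.06. In the interferon list, with a median of -0.02 over 28 genes, the ISG15 protease Usp18 was lower (-0.35, SE 0.06) and the guanylate-binding protein Gbp3 higher (0.48, SE 0.12), both without overlap.

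Other genes with separated values were Lama4, a laminin chain of the vascular basement membrane (0.48, SE 0.10), Cgnl1, a paracingulin of cell junctions (0.32, SE 0.07), Aplnr, the apelin receptor (0.32, SE 0.07), Erg, an endothelial transcription factor (0.22, SE 0.06), and Hey1, a Notch target of arterial endothelium (-0.44, SE 0.10). Gkn3, a marker of arterial endothelium, differed by 0.73 (SE 0.23) with overlap. None of these passed limma's adjusted threshold (adjusted p = 0.23 to 0.53), and they were picked for their values from lists chosen with earlier results known.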
